A study of Mus musculus with 30 samples.

Results

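Transcript levels of 10 homeostatic astrocyte genes were examined in the hippocampus of mice given methylmercury (MeHg) in the feed, out of 21412 genes with a normalized count. The genes were chosen by symbol as a list: Aqp4, Gja1, Gjb6, Aldh1l1, Aldoc, S100b, Sox9, Ndrg2, Mlc1 and Hepacam. All 10 were found once in the data and all 10 passed the filter on low values. The lowest number of reads for any of them in any library was 188, for Aldh1l1.

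Astrocytes keep the extracellular space of the brain in balance. They move water and potassium away from active neurons, share small molecules through gap junctions, and supply neurons with products of glycolysis. The 10 genes serve these tasks in the resting state. Aqp4 encodes the water channel of astrocyte end-feet. Gja1 (connexin 43) and Gjb6 (connexin 30) form the gap junctions between astrocytes. Aldh1l1 is a folate enzyme and Aldoc the brain aldolase, and both are common astrocyte markers. S100b is a calcium-binding protein, Sox9 a transcription factor of astrocyte identity, and Ndrg2 a cytoplasmic protein of the Ndrg family. Mlc1 and Hepacam are membrane proteins that act together at astrocyte junctions. When astrocytes become reactive they raise intermediate filament genes such as Gfap and Vim, which serve here as a comparison.

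All mice were males of the inbred BALB/c strain, 2 to 3 weeks old on arrival, and were put on the diets after 5 days for 11 weeks. The Ctr group received feed with no added MeHg, the LD group feed with 0.28 mg MeHg per kg and the HD group feed with 5 mg MeHg per kg. The groups Se_Ctr, Se_LD and Se_HD carry the same 3 names with the prefix Se. The series title names dietary selenium-methionine, and its dose is not given in the sources used here. Each group had 5 mice with 1 library each, so the spread between libraries is that between mice. The tissue was whole hippocampus and no cell type was sorted. In such bulk tissue, more astrocytes and more RNA per astrocyte cannot be told apart.

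Between 5768208 and 11510521 reads per library fell on genes, with the lowest group median in Ctr (7119788) and the highest in HD (10159514). The 8 hippocampal markers examined were present in every library, with Neurod2, a transcription factor of excitatory neurons, at 739 or more normalized counts. Libraries are named by the number in their titles. HD library 21 stood apart, with the highest Gfap (32820), Vim (3548) and Aqp4 (9364) of all 30 libraries. Ctr library 13, HD library 15 and LD library 20 had the largest shares of reads on 5 genes that gather ribosomal RNA reads, at 13.6%, 3.56% and 3.41%, against at most 2.88% in the other libraries. Calls of the 10 genes in the HD group that change without library 21, or without libraries 13, 15 and 20, are given beside them.

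In the NCBIM37 build all 10 are annotated as protein-coding genes. Gja1 lies at chr10:56097106-56110225 and S100b on the same chromosome at chr10:75716598-75723904. Aldoc lies at chr11:78136470-78141283 and Sox9 at chr11:112643538-112649074. Ndrg2 and Gjb6 both lie on chromosome 14, at chr14:52524946-52533163 and chr14:57742140-57752448. Aldh1l1 is at chr6:90436421-90550197, Hepacam at chr9:37174953-37194157, Mlc1 at chr15:88786314-88809437 and Aqp4 on chromosome 18. S100b overlaps Dip2a on the opposite strand, which had a mean of 726 normalized counts, and Aldh1l1 overlaps the antisense gene Gm15756, with a mean of 1.09. The strand setting of the counting is not given in the sources used here, so reads of overlapping exons could not be assigned to 1 strand with certainty.

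RefSeq promoter sequences (build GRCm38.p6) were found for 8 of the 10 genes, not for Aqp4 and Sox9, and all 8 matched the NCBIM37 genome exactly and once. The 250 bases before the start are shown for Aldh1l1 and S100b, which were higher in HD than in Ctr mice, and for Hepacam, which had the smallest difference. They were searched on both strands for ACAAT (the core recognised by SOX factors), TTGGC (an NFI half-site) and TTCNNNGAA (a STAT site). Matches are in capitals.

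Aldh1l1, chr6:90500537-90500786, plus strand: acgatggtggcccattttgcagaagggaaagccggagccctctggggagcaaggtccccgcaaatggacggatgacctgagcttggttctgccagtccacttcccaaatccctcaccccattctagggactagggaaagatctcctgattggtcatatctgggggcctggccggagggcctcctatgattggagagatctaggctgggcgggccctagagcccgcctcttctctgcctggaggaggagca

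S100b, chr10:75716331-75716580, plus strand: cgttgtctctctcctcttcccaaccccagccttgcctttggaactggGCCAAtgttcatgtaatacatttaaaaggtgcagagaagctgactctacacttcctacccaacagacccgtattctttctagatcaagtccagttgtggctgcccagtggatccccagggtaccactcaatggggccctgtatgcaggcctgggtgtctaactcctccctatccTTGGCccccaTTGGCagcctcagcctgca

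Hepacam, chr9:37174941-37175190, plus strand: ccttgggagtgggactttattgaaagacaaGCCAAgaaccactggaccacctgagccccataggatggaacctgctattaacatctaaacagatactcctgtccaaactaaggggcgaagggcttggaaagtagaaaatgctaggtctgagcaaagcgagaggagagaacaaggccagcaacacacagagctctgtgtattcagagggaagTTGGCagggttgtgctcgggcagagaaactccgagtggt

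S100b held TTGGC 3 times and Hepacam 2 times, counting both strands. Aldh1l1 held none of the 3 motifs in this window, and its RefSeq start lies 64366 bases inside the annotated gene. The RefSeq start of Hepacam lies 238 bases inside its annotated gene, so its matches lie within that gene. Of the 8 genes, 5 held TTGGC, against 41.6% of 32544 promoters of the same length. Only Aldoc held ACAAT (27.4% of all promoters), and none held the STAT motif (7.04%). A match is a match of letters and no binding was measured.

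Per kilobase of exon, Ndrg2 was the most abundant of the 10 genes in Ctr mice, at 2031 ± 333 normalized counts (SD, n = 5). It was followed by Gja1 (1415 ± 217) and Aldoc (1383 ± 192), and the ranges of these neighbours overlapped. S100b came next at 529 ± 29.9, apart from both Aldoc above and Mlc1 below. Mlc1 (386 ± 62.7), Hepacam (328 ± 42.7), Aqp4 (278 ± 32.9) and Gjb6 (219 ± 44.6) followed, and the ranges of neighbours among these 4 overlapped. Sox9 (156 ± 11.6) and Aldh1l1 (88.3 ± 20.5) stood below them, each without overlap with its neighbour. In HD mice Aqp4 moved from rank 7 to rank 4 in this order, with 690 ± 611 per kilobase, and its range overlapped with that of S100b. Without library 21 it was at rank 6, with 422 ± 138 per kilobase (SD, n = 4). In Se_HD mice it was again at rank 7.

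The comparison of HD with Ctr asks whether the higher MeHg dose changed these genes. All 10 genes had a higher mean log2 value in HD mice, with a median log2 fold change of 0.28, against 0.01 over all 20031 genes tested. Aqp4, Sox9, Aldh1l1 and S100b rose by the rule used here, an unadjusted p under 0.05 in limma both for the F test over the 3 groups and for the contrast. The rule called 5.09% of all genes, counting both directions. After Benjamini-Hochberg adjustment over all genes, 0 of the 10 passed in limma, with a lowest adjusted p of 0.28. The same held in edgeR (lowest adjusted p = 0.117) and DESeq2 (0.0986), while 0.13% of all genes passed in limma, 0.225% in edgeR and 0.978% in DESeq2. At an unadjusted p under 0.05 for the contrast alone, limma gave 5 of the 10 genes (8.34% of all genes). By the rule, edgeR and DESeq2 each called 4 (5.85% and 5.45% of all genes). With 1 library left out at a time, 2 to 7 genes passed the rule. The count was 7 without Ctr library 1 and 2 without HD library 9, Ctr library 13 or Ctr library 25. Over all genes, 862 of 19893 were called without Ctr library 1. Without HD library 9, Ctr library 13 and Ctr library 25 these were 963 of 19860, 1156 of 19730 and 858 of 19882. Aqp4 and Sox9 were called whichever of the 10 libraries was left out. The count of members was 6 with all 30 libraries in one fit, where variances were estimated over all 6 groups. That fit called 1551 of 21383 genes, against 1019 of 20031 in the fit of 15 libraries.

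**Figure D1:**
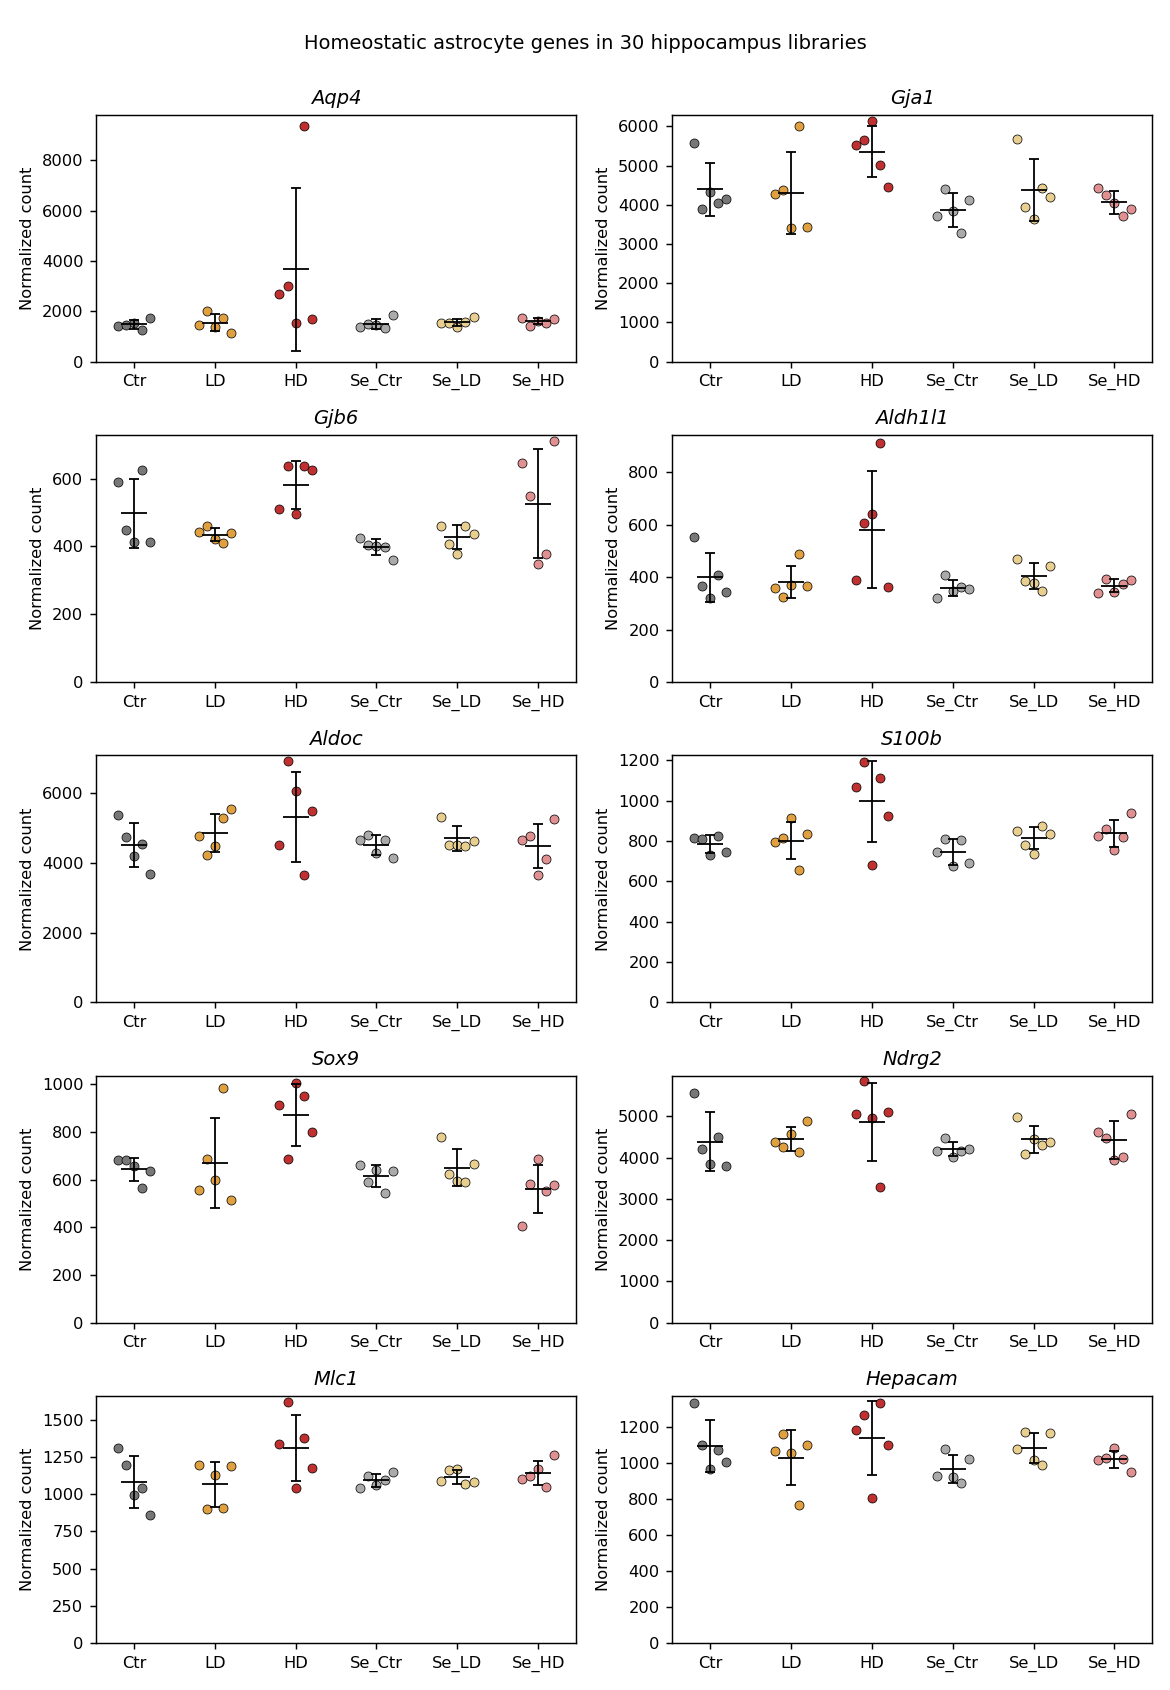
Normalized counts of the 10 genes in the 6 groups. Each point is 1 library (1 mouse), and the bar with whiskers is the mean ± SD of 5 libraries. In the Aqp4 panel HD library 21 lies at 9364, above the other HD libraries.

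Aqp4 was measured at 1405, 1465, 1542, 1248 and 1723 normalized counts in the Ctr libraries 1, 7, 13, 19 and 25. In the HD libraries 3, 9, 15, 21 and 27 it was 2704, 3024, 1529, 9364 and 1706. Thus 3 HD mice lay above every Ctr mouse and 2 lay within the Ctr range. The log2 fold change was 0.97 (SE 0.31, limma adjusted p = 0.28, exact permutation p = 0.0397), a 1.96-fold higher level. Without library 21 the log2 fold change of Aqp4 was 0.55 and still passed the rule (limma adjusted p = 0.48). None of the 7 genes of the dystrophin complex that anchors Aqp4 to the end-foot passed the rule (median log2 fold change 0.04). None of the other 3 aquaporins tested passed either. Aqp1, the water channel of the choroid plexus, had a log2 difference of 1.42 (SE 0.89, limma adjusted p = 0.74), at 165 ± 95.5 in HD and 96.6 ± 109 in Ctr mice (SD, n = 5). Aqp11 was at 60.2 ± 18 in HD and 61.8 ± 6.3 in Ctr mice (SD, n = 5).

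Sox9 was the only member whose HD and Ctr values did not overlap. The Ctr libraries 1, 7, 13, 19 and 25 held 683, 680, 655, 566 and 634 normalized counts, and the HD libraries 3, 9, 15, 21 and 27 held 911, 684, 1005, 952 and 798. All 5 HD mice were above all 5 Ctr mice, although library 9 lay next to the highest Ctr value. Such separation in either direction was found for 1.71% of all genes. The log2 fold change was 0.42 (SE 0.14, limma adjusted p = 0.317), and the exact permutation p of 0.00794 is the smallest that 5 against 5 can give. Without library 21 the Sox9 difference was 0.39, and without libraries 13, 15 and 20 it was 0.38, and both passed the rule. Without libraries 13, 15 and 20, 1 of 11 other transcription factors of the glial lineage fell. With all libraries 2 of the 11 rose, against 5.09% of all genes called. The 2 were Sox2, with a log2 fold change of 0.36 (SE 0.12), and Stat3, a mediator of cytokine signals, with 0.74 (SE 0.21). All 5 HD libraries were above all 5 Ctr libraries for each of them, and neither passed adjustment (limma adjusted p = 0.28 and 0.199).

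Aldh1l1 was at 553, 367, 320, 409 and 344 normalized counts in the Ctr libraries 1, 7, 13, 19 and 25. In HD libraries 3, 9, 15, 21 and 27 it was 388, 605, 640, 911 and 361. Libraries 9, 15 and 21 were above all Ctr mice, and libraries 3 and 27 were within the Ctr range. The log2 fold change was 0.49 (SE 0.2, limma adjusted p = 0.496, exact permutation p = 0.103). The call of Aldh1l1 was lost without library 21 (log2 fold change 0.3, limma adjusted p = 0.835) and without libraries 13, 15 and 20 (0.36, adjusted p = 0.633). It was also lost when library 9, 13, 15 or 25 was left out by itself, with log2 fold changes of 0.45, 0.41, 0.43 and 0.44. Aldoc did not pass, with a log2 fold change of 0.22 (SE 0.15, limma adjusted p = 0.772). Its HD values of 4507, 6922, 6062, 3647 and 5496 in libraries 3, 9, 15, 21 and 27 spanned the Ctr range of 3686 to 5377 on both sides, and library 21 was the lowest. Without library 21 Aldoc passed the rule, with 0.34 (limma adjusted p = 0.631). None of the 9 other aldolase and folate genes passed, and 1 rose without libraries 13, 15 and 20. The mitochondrial enzyme Aldh1l2 had the lowest p among them, at 145 ± 127 in HD and 75.4 ± 12.8 in Ctr mice (SD, n = 5).

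S100b was narrow in Ctr mice, at 815, 811, 730, 825 and 744 normalized counts in libraries 1, 7, 13, 19 and 25. HD libraries 3, 9, 15, 21 and 27 held 1069, 1191, 681, 1113 and 922. Library 15 was below all Ctr mice and the other 4 HD mice were above all of them. The log2 fold change was 0.32 (SE 0.13, limma adjusted p = 0.462, exact permutation p = 0.0714). The call was lost without library 21 (S100b log2 fold change 0.27, limma adjusted p = 0.786), and also without library 3, 9, 13 or 25, at 0.28, 0.25, 0.29 and 0.3. Without libraries 13, 15 and 20 the S100b difference was 0.42, with a limma adjusted p of 0.0703. Of 9 other S100 genes 6 rose, with a median log2 fold change of 0.68 over the 9, and without library 21 the count was 2 and the median 0.39. S100a1 had 5 of 5 HD libraries above all Ctr libraries (log2 fold change 0.61, SE 0.17, limma adjusted p = 0.185), and S100a6 rose by 1.44 (SE 0.42, limma adjusted p = 0.2).

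The gap junction genes did not pass the rule for HD against Ctr. Gja1 was 4395 ± 674 in Ctr and 5351 ± 649 in HD mice (SD, n = 5), with a log2 fold change of 0.29 (SE 0.14, limma adjusted p = 0.618). Ctr library 1, at 5568, was above 3 of the HD libraries. Gja1 passed the rule without that library (log2 fold change 0.38) and without HD library 27 (0.35). Gjb6 was 497 ± 101 in Ctr and 581 ± 71.7 in HD mice, with a log2 fold change of 0.24 (SE 0.12, limma adjusted p = 0.64). Its HD range of 495 to 637 overlapped with the Ctr range of 413 to 624. Gjb6 passed the rule without library 1, 3, 15 or 19, with log2 fold changes of 0.3, 0.28, 0.29 and 0.32. Of 8 other connexins none passed. Gja5 (connexin 40 of vessels) and Gjc3 (connexin 29 of myelinating cells) had the lowest p, with log2 differences of 0.45 (SE 0.23) and -0.27 (SE 0.14).

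Neither the junction proteins nor Ndrg2 passed the rule. Mlc1 was 1080 ± 176 in Ctr and 1310 ± 220 in HD mice (SD, n = 5), a log2 difference of 0.28 (SE 0.13). Its contrast passed the unadjusted threshold in limma (adjusted p = 0.587) but its F test did not. Without libraries 13, 15 and 20 the Mlc1 difference was 0.33 and passed the rule (limma adjusted p = 0.388), as it did without Ctr library 1 (0.35) or HD library 15 (0.36). Hepacam was 1093 ± 142 in Ctr and 1135 ± 206 in HD mice, with a log2 difference of 0.04 (SE 0.13), whose 95% interval ran from -0.24 to 0.32. Without library 21 the Hepacam difference was -0.02. Ndrg2 was 4380 ± 718 in Ctr and 4855 ± 941 in HD mice, a log2 difference of 0.14 (SE 0.13). Library 21 had the lowest Ndrg2 of all 30 libraries, at 3296. None of 4 partners of Mlc1 and Hepacam and none of the 3 other Ndrg genes passed the rule.

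**Figure D2:**
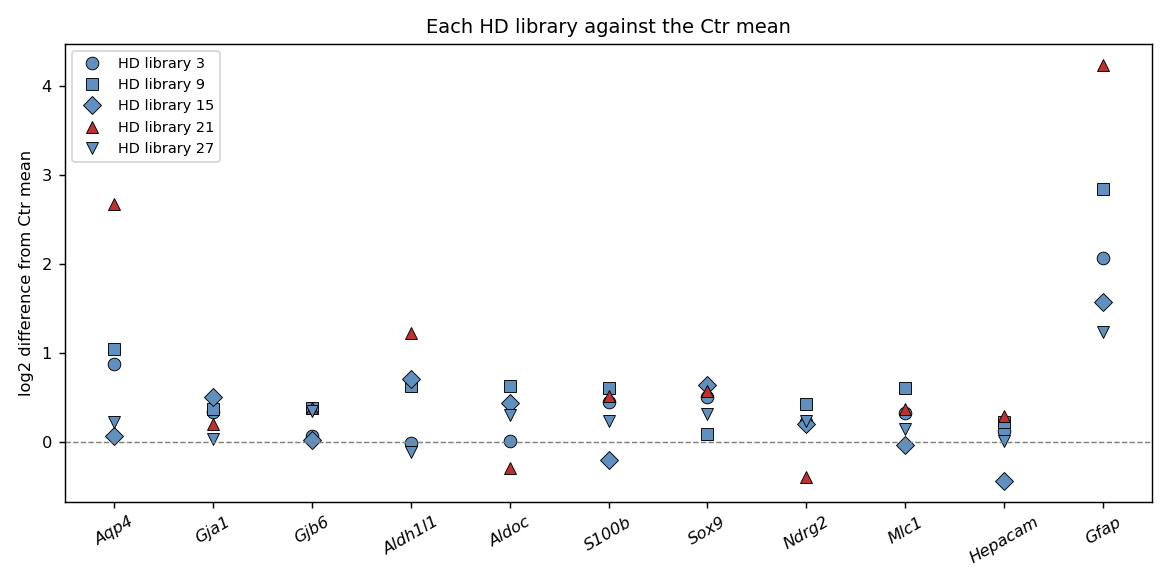
Each HD library as a log2 difference from the mean of the 5 Ctr libraries, for the 10 genes and Gfap. Points are single libraries, library 21 is drawn in red, and the dashed line is the Ctr mean. Library 21 is highest for Aqp4, Aldh1l1, Gjb6, Hepacam and Gfap and lowest for Aldoc and Ndrg2.

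The 5 HD mice differed in which genes were high. Library 9 was above the Ctr mean for all 10 genes, with a median log2 difference of 0.52. Library 21 was above it for 8 genes (median 0.38), library 3 for 9 (0.27), library 27 for 9 (0.22) and library 15 for 7 (0.13). Gfap ordered the HD mice as library 21 (32820), 9 (12446), 3 (7281), 15 (5143) and 27 (4080), all above the Ctr range of 1430 to 1988. Aqp4 was highest in the same 3 libraries, in the same order. Sox9 was highest in library 15 and Gja1 too, at 1005 and 6147, while that library had the lowest S100b, Mlc1 and Hepacam of the group.

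At the lower dose no member passed the rule, while 1.46% of all genes were called for LD against Ctr in limma. The contrast alone gave 0 of 10 genes at an unadjusted p under 0.05 (3.01% of all genes), and edgeR and DESeq2 called none by the rule. The median log2 difference was 0, and 5 genes were above and 5 below 0. The largest difference was in Gjb6, at 434 ± 19.6 in LD and 497 ± 101 in Ctr mice (SD, n = 5), a log2 difference of -0.17 (SE 0.12). For Aqp4 the 95% interval ran from -0.6 to 0.71 and overlapped with that of HD against Ctr, 0.32 to 1.63. The upper end of the LD interval was below the log2 fold change of 0.97 in HD mice and above the 0.55 found there without library 21. LD library 20 had the highest Sox9 (985), Gja1 (6000) and Aldh1l1 (488) and the lowest Hepacam (766) and S100b (657) of its group.

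Compared with LD mice, HD mice had higher Aqp4, Gjb6, Aldh1l1, S100b and Sox9. These 5 genes passed the rule, against 4.49% of all genes, and the HD libraries are the same as in the comparison with Ctr. After adjustment 0 of the 10 passed, with a lowest adjusted p of 0.309 in limma, 0.155 in edgeR and 0.0951 in DESeq2. Of all 20031 genes, 10, 38 and 174 passed adjustment in limma, edgeR and DESeq2. At an unadjusted p under 0.05, limma's contrast alone gave 7 of the 10 genes, and 1394 of all 20031 genes. All 10 differences were above 0, with a median of 0.32. Gjb6 was separated best, with LD libraries 2, 8, 14, 20 and 26 at 441, 460, 422, 409 and 440 and HD libraries 3, 9, 15, 21 and 27 at 510, 636, 495, 637 and 626. All 5 HD values were above all 5 LD values, a separation found in 1.34% of all genes. The Gjb6 log2 difference was 0.41 (SE 0.12, limma adjusted p = 0.309, exact permutation p = 0.00794). Without library 21, and likewise without library 9, 3 genes passed, and in both cases the calls of Aldh1l1 and S100b were lost. Aldh1l1 also lost its call without library 15 (0.48), and S100b without library 3 (0.26) or LD library 20 (0.22). Gja1 gained a call without LD library 20 (0.47) or HD library 27 (0.4), and Mlc1 without LD library 2 or 26 (0.34 each) or HD library 15 (0.37). Without libraries 13, 15 and 20 the count was 6, as Gja1 (0.41) and Mlc1 (0.32) passed and Aldh1l1 (0.57) did not.

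**Figure D3:**
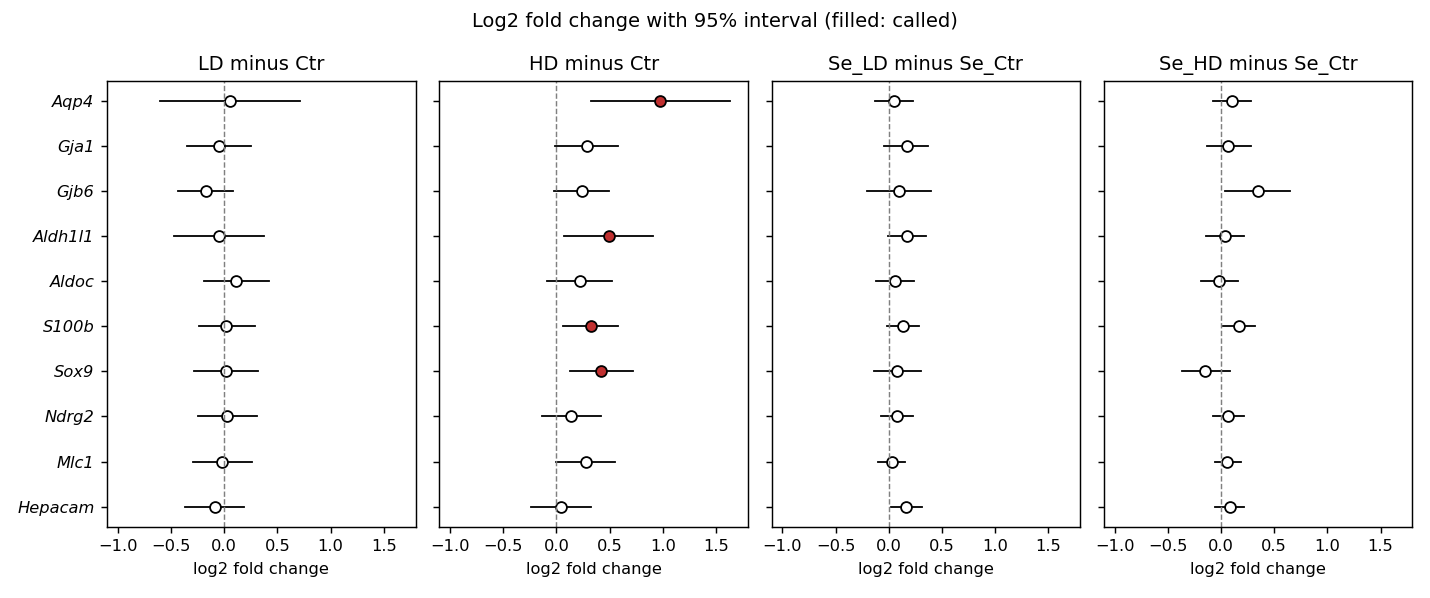
Log2 fold changes of the 10 genes in 4 comparisons, with 95% intervals from limma. Filled points passed the rule of an F test and contrast p under 0.05. Filled points are seen only for HD minus Ctr, where Aqp4 lies at 0.97, and no gene is filled for LD minus Ctr or in the selenium groups.

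Within the selenium groups no member passed the rule. Of 10 genes, 8 had a higher mean log2 value in Se_HD than in Se_Ctr mice, with a median of 0.07, and 2.06% of all genes were called. At an unadjusted contrast p under 0.05, limma gave 2 of the 10 genes (4.19% of all genes). They were Gjb6, with a log2 difference of 0.35 (SE 0.15), and S100b, with 0.17 (SE 0.07), and neither passed limma's F test over the 3 groups. Gjb6 passed the rule in edgeR and in DESeq2 (0.4 in each), which called 2.05% and 1.59% of all genes. Gjb6 passed the rule without Se_HD library 18 (0.48) or 24 (0.45), and S100b without Se_Ctr library 10 or 22 (0.2 each) or Se_HD library 18 (0.21). Sox9 passed as lower without Se_HD library 18 (-0.22, against -0.15 with all libraries). Gjb6 varied widely in Se_HD mice, at 645, 550, 347, 377 and 710 in libraries 6, 12, 18, 24 and 30, against 361 to 424 in Se_Ctr mice. S100b in Se_HD libraries 6, 12, 18, 24 and 30 was 823, 858, 753, 818 and 936, and 4 of the 5 were above the highest Se_Ctr value of 811. Aqp4 was 1605 ± 127 in Se_HD and 1505 ± 209 in Se_Ctr mice (SD, n = 5), with a 95% interval of the log2 difference from -0.08 to 0.28. In Se_LD against Se_Ctr mice all 10 differences were above 0, with a median of 0.09, and 0 passed the rule (1.46% of all genes). Hepacam had the lowest p there, with a log2 difference of 0.16 (SE 0.07). In Se_HD against Se_LD mice 0 of 10 passed (2.47% of all genes), and Sox9 was lower by a log2 difference of -0.23 (SE 0.11).

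Groups with the same name but for the prefix Se were then compared, in a limma fit over all 30 libraries. A contrast p under 0.05 was the rule there. Se_Ctr mice had lower Gjb6 than Ctr mice, with 398 ± 22.8 against 497 ± 101 (SD, n = 5), a log2 difference of -0.3 (SE 0.14, limma adjusted p = 1), and 4% of all genes were called. That call was lost when Ctr library 1 or 19 or Se_Ctr library 10, 16, 22 or 28 was left out. No member was called in Se_LD against LD mice, where 2.86% of all genes were called.

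All 10 genes had a lower mean log2 value in Se_HD than in HD mice, with a median difference of -0.22, against -0.01 over all genes. Aqp4, Gja1, Aldh1l1, S100b and Sox9 passed the rule, against 8.38% of all genes. Sox9 alone passed adjustment in limma, with a log2 difference of -0.64 (SE 0.13, limma adjusted p = 0.0199), and 0.327% of all genes did so. edgeR and DESeq2 each gave 3 genes after adjustment (0.781% and 1.05% of all genes). Sox9 was 405, 583, 686, 550 and 578 in Se_HD libraries 6, 12, 18, 24 and 30, and 4 of these were below the lowest HD value of 684. Without library 21 the Sox9 difference was -0.6, with a limma adjusted p of 0.105. It missed adjustment too without Se_HD library 6 (-0.53, limma adjusted p = 0.101) or 24 (-0.64, limma adjusted p = 0.0588), and in limma without a variance trend (adjusted p = 0.0725). Gja1 was 4431, 4241, 4039, 3708 and 3884 in the same Se_HD libraries, and all 5 lay below the lowest HD value of 4444. The Gja1 log2 difference was -0.39 (SE 0.13, limma adjusted p = 0.293, exact permutation p = 0.00794), and 1.5% of all genes had no overlap between these groups. Aqp4 was 1729, 1423, 1629, 1535 and 1711 in Se_HD libraries 6, 12, 18, 24 and 30, and its log2 difference was -0.85 (SE 0.25, limma adjusted p = 0.213). Without library 21 the Aqp4 difference was -0.42 (limma adjusted p = 0.525). The S100b log2 difference was -0.23 (SE 0.1, limma adjusted p = 0.564), and its call was lost when library 3, 6, 9, 18, 21 or 24 was left out. With 1 library left out the count was 4 to 7. It was 6 without library 21, where Aldoc (-0.35) and Ndrg2 (-0.25) passed, and 7 without library 15, where Mlc1 (-0.27) and Hepacam (-0.25) passed. It was also 7 without Se_HD library 30, where Gjb6 (-0.31) and Aldoc (-0.28) passed, and Aldoc passed without library 3 (-0.27). Without libraries 13, 15 and 20 it was 7, with Mlc1 (-0.27) and Hepacam (-0.25).

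The difference between the diets in the effect of HD was tested as an interaction, and it shares its HD and Se_HD libraries with the comparison of those groups. It was below 0 for 8 of 10 genes, and 2 passed an unadjusted p under 0.05 in limma, against 4.77% of all genes. Sox9 had an interaction of -0.57 (SE 0.19, limma adjusted p = 0.729). For Aqp4 it was -0.87 (SE 0.36, limma adjusted p = 0.997), and -0.45 without library 21, which still passed the unadjusted threshold. Both passed the unadjusted threshold whichever library was left out. With 1 library left out, S100b (-0.28) and Mlc1 (-0.3) passed it without HD library 15, Aldoc (-0.36) without library 21, and Aldh1l1 without HD library 3 (-0.57), HD library 27 (-0.6) or Ctr library 1 (-0.57). Without libraries 13, 15 and 20 S100b passed (-0.25). At an unadjusted p under 0.05, edgeR and DESeq2 each gave 3 of the 10 genes, and 1120 and 924 of all 21383 genes. After adjustment 0 of 10 passed in limma, edgeR or DESeq2. For the LD effect 0 of 10 genes passed in limma, and 3.75% of all genes were called. The selenium groups are a separate set of mice, and whether they were handled at the same time is not given in the sources used here.

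Other genes of astrocytes were set beside the 10. Of 30 other astrocyte-enriched genes, 2 rose in HD against Ctr mice and 0 fell, against 5.09% of all genes called. Their median log2 fold change was 0.1, and 1 of 30 rose without library 21. The 2 were Gpr37l1, an astrocyte receptor (log2 fold change 0.4, SE 0.12), and Atp1b2, a subunit of the sodium pump (0.4, SE 0.15). Their limma adjusted p-values were 0.237 and 0.426. In Se_HD against HD mice 6 of the 30 fell and 0 rose (median -0.14), against 8.38% of all genes called. Of the 30, 1 passed adjustment in limma, as did 0.327% of all genes. The potassium channel Kcnj10 was at 4700 ± 1130 in HD and 3730 ± 577 in Ctr mice (SD, n = 5). Of 14 genes of reactive astrocytes, 12 rose, with a median of 1.38. Without library 21 the count was 6 and the median 1.09, and without libraries 13, 15 and 20 they were 10 and 1.59. Gfap rose by a log2 fold change of 2.39 (SE 0.35, limma adjusted p = 0.00716), and the receptor Osmr rose by 1.51 (SE 0.36, limma adjusted p = 0.114). In Se_HD against Se_Ctr mice Gfap rose by 0.51 (SE 0.12, limma adjusted p = 0.728), and 4 of 13 reactive genes tested rose.

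Microglia and ependymal markers rose in the HD group, while few markers of other cells passed the rule. For HD against Ctr the rule called 5.09% of all genes. All 12 microglia markers rose in HD against Ctr mice, with a median log2 fold change of 0.95, and without library 21 the count was 11 and the median 0.71. The sum of their normalized counts lay between 3620 and 8585 in HD and between 2829 and 3120 in Ctr libraries, and it was highest in library 21. Tyrobp, an adaptor of microglial receptors, rose by 1.71 (SE 0.26, limma adjusted p = 0.00903). All 4 ependymal markers rose (median 1.03), with sums of 252 to 386 in HD and 74.9 to 304 in Ctr libraries. Without libraries 13, 15 and 20, 3 of the 4 rose. In LD against Ctr mice 2 of the 4 also rose (median 0.73). None of the 7 choroid plexus markers passed, although all 7 had a log2 difference above 0, with a median of 1.48. Their sum ranged from 822 to 31138 within Ctr libraries (median 10935) and from 7021 to 29401 within HD libraries (median 27183). Of 9 neuron markers 1 fell, which was Gad1 of inhibitory neurons, with a log2 fold change of -0.45 (SE 0.1, limma adjusted p = 0.0695). None of 6 oligodendrocyte, 5 oligodendrocyte precursor, 8 endothelial and mural and 5 erythrocyte markers passed, although 1 oligodendrocyte marker fell without libraries 13, 15 and 20. In HD against LD mice 11 of 12 microglia markers rose (median 1.03), and so did 11 of 14 reactive astrocyte genes (median 1.42). Without library 21 these counts were 11 and 8, with medians of 0.76 and 0.81. In Se_HD against HD mice 11 of 12 microglia markers fell (median -0.88), and so did 10 of 14 reactive astrocyte genes (median -1.08). Without library 21 these counts were 11 and 6, with medians of -0.64 and -0.52. The microglia sum lay between 2963 and 3456 in Se_HD and between 2797 and 3255 in LD libraries. No marker of these lists was at 0 in all libraries of the Ctr or the HD group. The part of these markers in the differences of the 10 genes was not tested.

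Co-variation of the 10 genes across the 30 libraries was examined with group means removed. The median r of a gene with the other 9 was between 0.11 and 0.28 for 9 of the genes, against -0.02 to 0.02 over all 14295 other genes. Of 45 pairs, 2 passed a permutation test after Benjamini-Hochberg adjustment over the pairs. Aldoc and Ndrg2 had a Pearson r of 0.83 and a Spearman rho of 0.72. The permutation p of r was 1e-05, the smallest that 100000 resamples can give (adjusted 0.0004), and that of rho was 9e-05 (adjusted 0.00405). Without the 2 libraries farthest from the median of Aldoc, r was 0.72. Gjb6 and S100b had an r of 0.48 (permutation p = 0.0005, adjusted 0.011) and a rho of 0.54 (permutation p = 0.00334, adjusted 0.0751). Their r was 0.42 without the 2 farthest libraries, and 0.35 when also centred within sets of 6 consecutive library numbers. Sox9 had an r below 0 with 6 of the other 9 genes and a median r of -0.28, and its highest r was 0.53, with Gja1. Aqp4 had an r of -0.58 with Aldoc and -0.6 with Ndrg2, and without library 21 these were -0.24 and -0.08. The rho values were -0.34 and -0.43, and neither pair passed after adjustment. The number of pairs that passed was 13 without library 21.

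**Figure D4:**
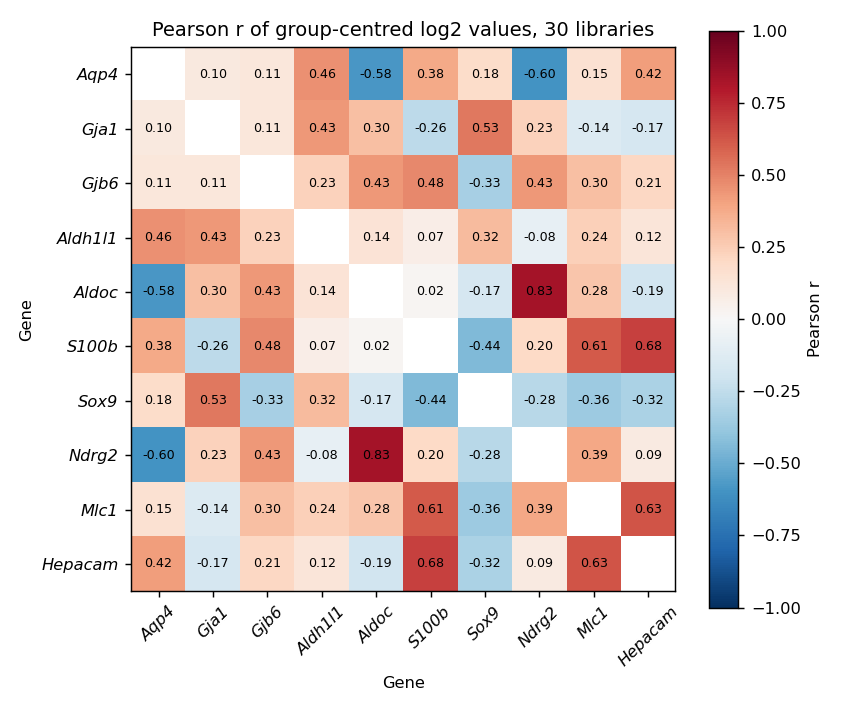
Pearson r between the 10 genes over 30 libraries, from log2 normalized counts with the mean of each group removed. Each cell is 1 pair, red above 0 and blue below. Aldoc and Ndrg2 have the highest value, at 0.83, and Aqp4 and Ndrg2 the lowest, at -0.6.

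Among 14286 other genes averaging 10 or more normalized counts, the 5 whose group-centred values were most like the mean of the 10 were Serpine2 (r = 0.76), Htra3 (0.74), Prdx6 (0.72), Adk (0.72) and Lpcat1 (0.71). These values are given as a description across 30 libraries that share their depth and normalization.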

How the data were processed

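RNA of the hippocampus of 30 mice was sequenced by the authors as 75-base single-end reads. Per the labels and the study's methods, reads were trimmed with Trim Galore 0.4.2, mapped to NCBIM37 with Hisat2 and counted per gene with featureCounts, and features with a low row sum were removed. The deposited values are signal values: each read count was scaled by the authors with the library's DESeq2 size factor, estimated over all 30 libraries. Within a tolerance of 0.01, 100% of the values were whole numbers of reads after division by 1 step per library, and reads were recovered in this way. Gene positions came from the annotation of the same build, with a symbol for 21326 of the 21412 genes. 0 columns of values were left unused.

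limma 3.58.1 (R 4.3.3) was run on log2(value + 1) with trended variances and 1 coefficient per group. Genes entered a fit when their normalized counts summed to 10 or more. Fits held the 15 libraries of a diet (20031 or 19679 genes) or all 30 (21383 genes). Within a diet a gene was called at a p under 0.05 in both the F test and the contrast, and across diets in the contrast alone. Adjusted p-values are Benjamini-Hochberg over all genes tested. Fold changes are on the log2(value + 1) scale. Exact permutation tests of 5 against 5 were two-sided on the log2 values. Co-variation was permuted within groups, two-sided. Comparisons with the same group share its libraries.

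The members, gene lists and tests were chosen with earlier results of these data known. Named genes are the 10 members, up to 3 genes of each other list with the lowest p for HD against Ctr, Gfap, and the 5 genes most like the members' mean, of which the text names a part. Vim, Dip2a and Gm15756 were named after their values were seen. Alternatives were edgeR 4.0.16 and DESeq2 1.42.0 on recovered reads, pseudocounts of 0.1 and 10, other filters, normalizations and fits, sets of 6 consecutive library numbers as a block, and each library left out. Leaving out library 21, or libraries 13, 15 and 20, was chosen after seeing the data. Of the fits, only HD against Ctr without the Se groups was tested on simulated data, with changes larger than most differences of the members. Python 3.11.15 with numpy 2.4.6, pandas 2.3.3 and matplotlib 3.10.9 served for tables and figures.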

Additional observations from a re-analysis of the deposited data

Results flagged for a closer look

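Within the 60 combinations of 10 genes and 6 groups, 5 had a lowest or highest library whose gap to its neighbour exceeded Dixon's 95% critical value of 0.71 of the group's range. Chance gives about 1 in 20 groups, or 3 of 60. Aqp4 of HD library 21, at 9364 normalized counts, had a gap of 0.809 of the range. Gja1 of Ctr library 1, at 5568, had a gap of 0.745. Aldoc of Se_LD library 5, at 5329, had a gap of 0.835. LD library 20 stood out for Aldh1l1, at 488 and a gap of 0.716, and for Hepacam, at 766 and a gap of 0.734.

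The effect of HD differed between the diets at an unadjusted limma p under 0.05 for Aqp4, by a log2 difference of -0.87, and for Sox9, by -0.57, and neither passed adjustment over all genes.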

How the results depend on the processing

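For HD against Ctr, HD against LD, Se_HD against Se_Ctr, Se_HD against HD and the HD interaction, 1210 values of single members were computed under an alternative. Of these, 1106 kept their direction and their side of the threshold, 31 lost and 59 gained a call, and 14 changed sign. The changes of sign were of differences near 0, at most 0.08 in size after the change. Hepacam for HD against Ctr was 0 without HD library 9 or Ctr library 13 and -0.02 without library 21 (range with 1 library left out -0.02 to 0.16), and its interaction was -0.03, -0.08 or -0.04 without Ctr library 1, HD library 15 or libraries 13, 15 and 20 (range -0.08 to 0.1). Aldoc was 0 for HD against LD without library 9 (range 0 to 0.23), and for Se_HD against Se_Ctr 0.02 after quantile normalization and 0.01, 0.05 and 0.01 with Se_Ctr library 10, Se_HD library 18 or Se_HD library 24 left out. Aldh1l1 for Se_HD against Se_Ctr was 0 without Se_Ctr library 4. The Ndrg2 interaction was 0.01 without HD library 9 (range -0.2 to 0.01) and that of Gjb6 -0.01 without Se_HD library 30 (range -0.01 to 0.24).

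The number of members called for HD against Ctr was 4, 2 without a variance trend, 5 after quantile normalization, from the contrast alone or the 2 groups only, and 6 with all 30 libraries in one fit. Leaving out 1 library gave 2 to 7, with 7 without Ctr library 1 and 2 without HD library 9, Ctr library 13 or Ctr library 25. For HD against LD it was 5, 3 without a trend or without library 21, 6 after quantile normalization, with the 2 groups only or without libraries 13, 15 and 20, 7 from the contrast alone or with all 30 libraries in one fit, and 3 to 6 with 1 library left out. For Se_HD against HD it was 5, 4 without a trend, 6 without library 21, 7 without libraries 13, 15 and 20, and 4 to 7 with 1 library left out. For Se_HD against Se_Ctr it was 0, 1 in edgeR and in DESeq2, 2 from the contrast alone or the 2 groups only, and 0 to 3 with 1 library left out. For Se_LD against Se_Ctr it was 0, 1 from the contrast alone or the 2 groups only, and 0 to 2 with 1 library left out. For Se_HD against Se_LD it was 0, 1 in DESeq2 and from the contrast alone, and 0 to 2 with 1 library left out. For Se_Ctr against Ctr it was 1, 0 without a trend, 2 without libraries 13, 15 and 20, and 0 to 1 with 1 library left out. The interaction count was 2 for HD, 3 in edgeR and in DESeq2, and up to 4 when HD library 15 was left out. For LD it was 0, with 1 without libraries 13, 15 and 20 or without LD library 20. The number of pairs of members that passed was 2, 7 after quantile normalization, 1 when centred within library sets, 13 without library 21 and 1 without libraries 13, 15 and 20. The number of all genes called also moved with the setting. For HD against Ctr it was 1019 of 20031, 1671 of 20031 from the contrast alone and 1551 of 21383 with all 30 libraries in one fit. For HD against LD these were 899 of 20031, 1394 of 20031 and 1332 of 21383. The causes were not tested. With 5 mice a group, differences such as that of Hepacam are known only within intervals of about ±0.28. Sets of 6 consecutive library numbers as a block left 4 members called for HD against Ctr and 5 for HD against LD. No paired analysis by replicate number was possible because the labels give none.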
